A study of Homo sapiens with 33 samples.

Results

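The dual base editor SpACE was set against the adenine base editor miniABEmax-V82G in HEK293T cells carrying the HEKsite2 guide RNA. The comparison uses 3 SpACE libraries and 3 miniABEmax-V82G libraries, 6 of the 33 in the study, and all 26475 genes of the deposited count table. HEK293T is a human embryonic kidney line that carries the SV40 large T antigen. SpACE cells had received 37.5 µg of the SpACE plasmid and 12.5 µg of the HEKsite2 guide plasmid, and miniABEmax-V82G cells the same amounts of the miniABEmax-V82G plasmid and the same guide plasmid. Every editor plasmid encoded EGFP behind a P2A peptide, and GFP-positive cells were sorted 36 to 40 h after transfection. Cells with SpACE or miniABEmax-V82G and a guide to the gene RNF2, and cells with the Cas9 nickase alone (nCas9) and the HEKsite2 guide, each with 3 libraries, served as further groups. For some genes, levels are also given with the editors Target-AID or ABEmax and the HEKsite2 guide. Levels in cells with GFP alone are given too, which had received 37.5 µg of plasmid and no guide plasmid. All 33 libraries, in 11 groups, entered the fit behind the tests. The data columns of SpACE carry UGI, the uracil glycosylase inhibitor, in their names and the sample labels do not, so whether the construct held it is not settled. The labels do not say whether replicates were separate cultures, so p-values measure the spread between these libraries, which may be technical.

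A base editor joins a nickase to a deaminase that rewrites single bases near the guide's site without cutting both strands. In an adenine editor a TadA-derived enzyme turns adenosine into inosine, which is read as guanosine, and in a cytosine editor such as Target-AID a cytidine deaminase turns cytidine into uridine. SpACE joins the adenosine deaminase of miniABEmax-V82G and the cytidine deaminase of Target-AID on one nickase, so the comparison asks how cells with the dual editor differ from cells with the adenine editor it contains. Deaminases of both kinds can also act on RNA, and miniABEmax-V82G is a small variant made to do so less. A count per gene does not show such edits, and editing was not analysed here.

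Few genes were called between the editors, and most of the called differences were small. SpACE cells had 64 genes higher and 44 lower than miniABEmax-V82G cells among 14613 tested (edgeR quasi-likelihood test, adjusted p under 0.05), or 0.739% of the genes, with 0.438% higher and 0.301% lower. DESeq2 called 150, with 108 higher and 42 lower. The median size of a called difference was 1.26-fold, and 2 genes were higher and 14 lower by 1.5-fold or more. The number called fell when 1 library was left out, to 39, 13 and 40 genes without miniABEmax-V82G replicate 1, 2 and 3. Without SpACE replicate 1, 2 and 3 it was 75, 51 and 26. Each such fit leaves a group of 2 libraries, which alone can lower the number. Only 6 of the 108 kept their call in all 6 such fits, namely the rises of HMOX1, AARS, SPECC1L and SUGT1 and the falls of ZBTB7B and PHF1, and these 6 also kept it in every other setting tried. Each of the other 102 calls was lost in at least 1 of them. Against nCas9 with the same guide, 3063 genes (21%) were called in SpACE and 1511 (10.3%) in miniABEmax-V82G, and both of these comparisons use the same nCas9 libraries. In SpACE 1568 rose (10.7%) and 1495 fell (10.2%), and in miniABEmax-V82G 733 rose (5.02%) and 778 fell (5.32%).

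**Figure D1:**
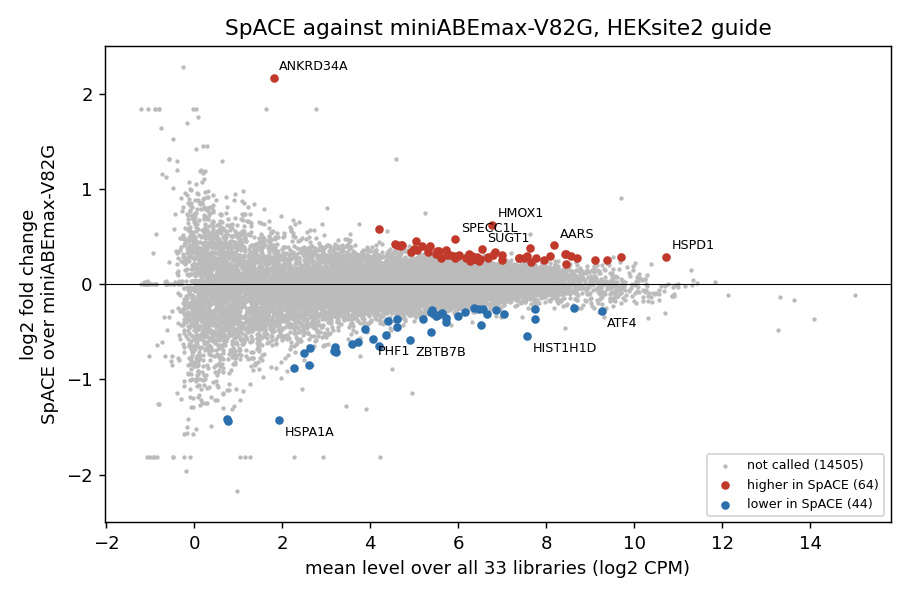
Each point is 1 of the 14613 tested genes, with its mean level over all 33 libraries (log2 CPM) on the horizontal axis and the log2 fold change, SpACE over miniABEmax-V82G with the HEKsite2 guide, on the vertical axis. Red points are the 64 genes higher and blue points the 44 lower in SpACE; 11 genes, none of them called, lie beyond the plotted range.

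HMOX1 had the largest rise among the 6. It encodes heme oxygenase, which breaks down heme and is induced by oxidative and electrophile stress, and it lies on chromosome 22 from 35380361 to 35394214 (GRCh38). It stood at 184, 169 and 173 CPM, counts scaled to the size of the library, in SpACE cells, against 119, 108 and 114 CPM in miniABEmax-V82G cells. The lowest SpACE library was well above the highest miniABEmax-V82G library. The log2 fold change was 0.62 ± 0.0861 (SE, 3 libraries each), or 1.54-fold, at adjusted p = 7.64e-05 in edgeR's quasi-likelihood test. Levels in other HEKsite2 groups were 112 ± 4.83 CPM with Target-AID, 156 ± 7.03 CPM with ABEmax, an earlier adenine editor, and 88.3 ± 8.01 CPM with nCas9 (SD over 3 libraries). Against nCas9, HMOX1 was higher by 0.99 ± 0.0888 in SpACE and by 0.37 ± 0.0906 in miniABEmax-V82G.

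AARS, the cytosolic alanyl-tRNA synthetase, lies on chromosome 16 from 70252295 to 70289543. Its level was 374, 386 and 369 CPM in SpACE cells, against 287, 272 and 289 CPM in miniABEmax-V82G cells. The groups did not overlap, and the log2 fold change was 0.41 ± 0.0574 (adjusted p = 7.64e-05, edgeR). SUGT1, a co-chaperone of HSP90 on chromosome 13 from 52652709 to 52700909, had 121, 116 and 122 CPM in SpACE cells, against 96.9, 92.7 and 89 CPM in miniABEmax-V82G cells. That is a log2 fold change of 0.37 ± 0.0643 (adjusted p = 0.00295, edgeR). SPECC1L, which encodes a protein of the actin and microtubule cytoskeleton and lies on chromosome 22 from 24270817 to 24417740, had 73.4, 65.8 and 64.9 CPM in SpACE cells, against 50.9, 46.1 and 50.5 CPM in miniABEmax-V82G cells. Its log2 fold change was 0.47 ± 0.0761 (adjusted p = 0.00106, edgeR). SPECC1L stood at 49.2 ± 2.66 CPM in miniABEmax-V82G cells and 51.2 ± 0.907 CPM in nCas9 cells (log2 fold change -0.06 ± 0.0793, adjusted p = 0.692, edgeR). AARS in miniABEmax-V82G, 283 ± 9.48 CPM, stood above nCas9 at 248 ± 8.6 CPM (log2 fold change 0.19 ± 0.0582, adjusted p = 0.0303, edgeR). Cells with GFP alone had 354 ± 10.6 CPM of AARS, above both of these groups.

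The falls of ZBTB7B and PHF1 concerned regulators of transcription and chromatin. ZBTB7B, a zinc finger transcription factor known for directing T cells to the CD4 lineage, lies on chromosome 1 from 155002630 to 155018522. It had 17.8, 21.3 and 19.7 CPM in SpACE cells, against 25.1, 32 and 31.4 CPM in miniABEmax-V82G cells, a log2 fold change of -0.59 ± 0.095 (adjusted p = 0.00106, edgeR). In nCas9 cells ZBTB7B stood at 50.1 ± 1.36 CPM, so against nCas9 it was lower with both editors, by -1.35 ± 0.0906 in SpACE and -0.76 ± 0.0853 in miniABEmax-V82G. Cells with GFP alone had 28 ± 2.89 CPM, close to the level in miniABEmax-V82G cells. PHF1, a partner of the Polycomb complex that methylates histone H3, lies on chromosome 6 from 33410399 to 33416453. Its level was 17.4, 15.2 and 14.1 CPM in SpACE cells, against 25.6, 19.9 and 24 CPM in miniABEmax-V82G cells, a log2 fold change of -0.57 ± 0.0975 (adjusted p = 0.00213, edgeR). Relative to nCas9 at 19.6 ± 0.789 CPM, PHF1 fell in SpACE (-0.34 ± 0.102, adjusted p = 0.0144, edgeR), while the value in miniABEmax-V82G was 0.23 ± 0.0958 (adjusted p = 0.115, edgeR). Cells with GFP alone had 12.7 ± 0.534 CPM of PHF1, below all of these groups.

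**Figure D2:**
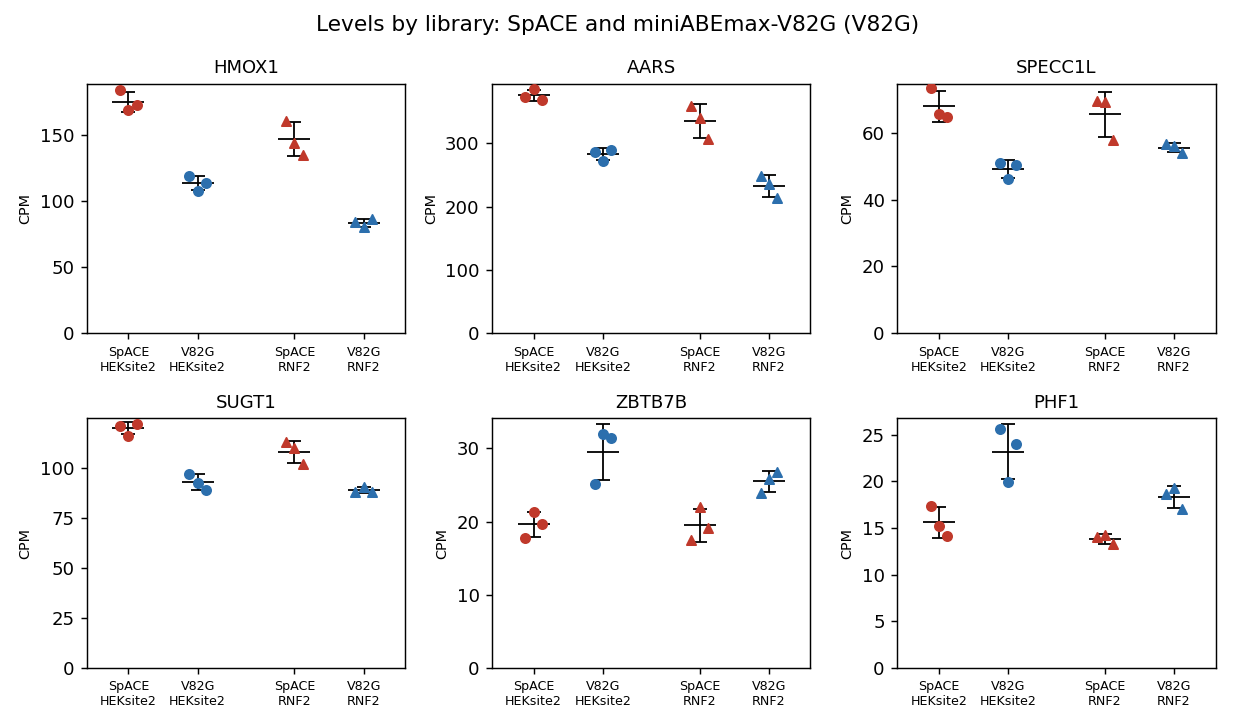
Level of HMOX1, AARS, SPECC1L, SUGT1, ZBTB7B and PHF1 in each library (CPM, axes from 0), with mean and SD of 3 libraries as bars; circles are HEKsite2 libraries, triangles RNF2 libraries, red SpACE and blue miniABEmax-V82G (V82G). With the HEKsite2 guide the 3 SpACE points lie apart from the 3 miniABEmax-V82G points in every panel, for HMOX1 at 169 to 184 CPM in SpACE and 108 to 119 CPM in miniABEmax-V82G.

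AARS belongs to the integrated stress response. In that pathway kinases that sense amino acid shortage, misfolded protein or double-stranded RNA phosphorylate eIF2alpha, which slows translation in general but favours that of the transcription factor ATF4, and ATF4 switches on genes for amino acid synthesis, amino acid transport and tRNA charging. Of 53 tested genes of the pathway, 5 rose in SpACE (9.43% of the list), namely AARS, GARS, TARS, ASNS and ATF3, and 1 fell (1.89%), ATF4 itself. Over all genes tested, 0.438% rose and 0.301% fell. The median log2 fold change of the list was 0.0868, against -0.00145 over all genes tested, and 39 of the 53 were above 0. At an unadjusted p under 0.05, 18 were higher and 4 lower, against 2156 of all 14613 genes in either direction.

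The start regions of 4 of these 5 are shown because they were searched for the core of the element that ATF4 binds together with C/EBP proteins. The letters searched were TGATGNAA on either strand, in the RefSeq window from 250 bases before to 50 after the start site (GRCh38.p14, written in the direction of the gene). Capitals mark the match, which in AARS and TARS is on the opposite strand and reads TTGCATCA.
AARS, chr16:70289457-70289756, minus strand: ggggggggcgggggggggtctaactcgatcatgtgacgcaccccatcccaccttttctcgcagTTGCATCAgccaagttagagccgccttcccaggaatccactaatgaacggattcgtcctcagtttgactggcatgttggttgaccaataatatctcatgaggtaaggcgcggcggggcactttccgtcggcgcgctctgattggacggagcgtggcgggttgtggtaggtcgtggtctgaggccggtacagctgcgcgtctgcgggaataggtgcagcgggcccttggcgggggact
ASNS, chr7:97872359-97872658, minus strand: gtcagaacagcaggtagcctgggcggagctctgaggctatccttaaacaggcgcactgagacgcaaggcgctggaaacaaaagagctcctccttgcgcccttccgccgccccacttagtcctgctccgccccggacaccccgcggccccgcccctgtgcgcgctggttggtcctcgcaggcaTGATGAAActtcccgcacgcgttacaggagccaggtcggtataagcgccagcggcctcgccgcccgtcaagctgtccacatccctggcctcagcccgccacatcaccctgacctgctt
ATF3, chr1:212565157-212565456, plus strand: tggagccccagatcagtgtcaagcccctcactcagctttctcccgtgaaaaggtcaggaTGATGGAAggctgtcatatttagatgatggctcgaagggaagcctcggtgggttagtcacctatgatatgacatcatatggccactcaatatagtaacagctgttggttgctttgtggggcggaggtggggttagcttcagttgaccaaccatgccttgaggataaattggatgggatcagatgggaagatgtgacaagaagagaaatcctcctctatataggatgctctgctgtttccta
TARS, chr5:33440715-33441014, plus strand: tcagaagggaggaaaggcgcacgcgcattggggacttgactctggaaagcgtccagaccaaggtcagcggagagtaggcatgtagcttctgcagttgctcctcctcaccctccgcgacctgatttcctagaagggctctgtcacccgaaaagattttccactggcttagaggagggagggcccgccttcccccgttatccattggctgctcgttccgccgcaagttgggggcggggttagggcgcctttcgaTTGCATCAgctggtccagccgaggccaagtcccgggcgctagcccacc
The match ends 180 bases before the start site in AARS, 61 in ASNS and 184 in ATF3, and in TARS it lies just past the start. Among called members of the pathway, 4 of the 5 windows present held the letters, the window of ATF4 being the one without, and 12 of 41 windows of the whole list held them. The share over all 27305 windows was 3.67%. Among all called genes, 6 of 51 windows of genes higher in SpACE held the letters. Of these 6, 4 are the windows of AARS, ASNS, ATF3 and TARS shown above, so they add nothing new. Of windows of genes lower in SpACE, 0 of 35 held the letters, which is near the share over all windows. The heat shock element of 3 units, searched on both strands, was in 0 of the same 51 and 0 of the 35 windows, and in 0.487% of all windows. A match is a string of letters in one window per gene, and other start sites of these genes were not searched.

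ASNS, asparagine synthetase, had 398, 411 and 412 CPM in SpACE cells, against 346, 323 and 314 CPM in miniABEmax-V82G cells. All 3 SpACE libraries were above all 3 of the other group, at a log2 fold change of 0.31 ± 0.0613 (adjusted p = 0.00965, edgeR). The call was lost without miniABEmax-V82G replicate 2 or 3, with adjusted p up to 0.0686. ATF3, a stress-induced transcription factor, had 453, 396 and 381 CPM in SpACE cells, against 340, 291 and 359 CPM in miniABEmax-V82G cells. The lowest SpACE and highest miniABEmax-V82G libraries lay close together, and the log2 fold change was 0.31 ± 0.0715 (adjusted p = 0.0261, edgeR), lost without miniABEmax-V82G replicate 1 or 2 or SpACE replicate 1. The tRNA synthetase genes GARS, for glycine, and TARS, for threonine, were higher by 0.30 ± 0.0624 and 0.25 ± 0.0559. TARS had nearly the same level in each SpACE library, 609, 610 and 607 CPM, against 529, 504 and 504 CPM in miniABEmax-V82G cells. The call of GARS was lost without miniABEmax-V82G replicate 2 or 3 or SpACE replicate 1 or 3, and that of TARS in all such fits except the one without miniABEmax-V82G replicate 1.

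ATF4 moved the other way. Its transcript stood at 524, 530 and 522 CPM in SpACE cells, against 664, 646 and 601 CPM in miniABEmax-V82G cells and 630 ± 23.7 CPM in nCas9 cells. The log2 fold change was -0.28 ± 0.0562 (adjusted p = 0.0115, edgeR), lost without miniABEmax-V82G replicate 1 or 2, without SpACE replicate 3, and when library trends with gene span and GC were removed (values from -0.32 to -0.18 over the settings tried). ATF4 is regulated mainly in translation, which these data do not measure. Other members of the pathway did not pass: DDIT3, a pro-apoptotic transcription factor, had 31.8 ± 2.93 CPM in SpACE cells and 34.5 ± 1.96 CPM in miniABEmax-V82G cells, with a 95% interval of the log2 fold change from -0.28 to 0.045. TRIB3, a pseudokinase that ATF4 induces, had 93 ± 10.4 and 79.5 ± 1.76 CPM in SpACE and miniABEmax-V82G cells, at 0.23 ± 0.0716 (adjusted p = 0.111, edgeR). Against nCas9, 38 of the 53 rose and 2 fell in SpACE (median 0.38), and 25 rose and 1 fell in miniABEmax-V82G (median 0.206). Of all genes tested against nCas9, 10.7% rose and 10.2% fell in SpACE, and 5.02% rose and 5.32% fell in miniABEmax-V82G.

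Heat shock chaperones let proteins fold and refold, and most are switched on by the transcription factor HSF1. Of 49 tested genes, 32 rose and 3 fell in SpACE against nCas9, and 28 rose and 0 fell in miniABEmax-V82G against the same nCas9 libraries. The shares over all genes tested were 10.7% and 10.2% in SpACE and 5.02% and 5.32% in miniABEmax-V82G. Between the editors 4 rose (8.16%) and 1 fell (2.04%) in SpACE against miniABEmax-V82G, beside 0.438% and 0.301% of all genes tested. The list median was 0.0532, and 33 of 49 were above 0. HSPA4L, an HSP110-type nucleotide exchange factor for HSP70, had 238, 244 and 250 CPM in SpACE cells, against 176, 187 and 202 CPM in miniABEmax-V82G cells, at 0.38 ± 0.0743 (adjusted p = 0.00965, edgeR). The mitochondrial chaperonin HSPD1 had 2020, 1990 and 2020 CPM in SpACE cells, against 1670, 1640 and 1620 CPM in miniABEmax-V82G cells, at 0.29 ± 0.0603. Replicates of HSPD1 differed by little beside the gap between the groups. BAG3, an HSP70 co-chaperone that steers clients to autophagy, rose by 0.30 ± 0.0747, and PTGES3, the HSP90 co-chaperone p23, rose by 0.25 ± 0.059. All 4 rises were lost on leaving out some single libraries: HSPA4L without miniABEmax-V82G replicate 1 or 2 or SpACE replicate 3, HSPD1 without miniABEmax-V82G replicate 2 or 3 or SpACE replicate 3, PTGES3 in 5 of the 6 such fits and BAG3 in all 6.

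Several strongly inducible genes did not pass the test between the editors, with values in both directions. HSPA1B, inducible HSP70, had 1230, 1180 and 1210 CPM in SpACE cells, against 1430, 1310 and 1360 CPM in miniABEmax-V82G cells and 282 ± 4.88 CPM in nCas9 cells. The log2 fold change between the editors was -0.17 ± 0.0582 (adjusted p = 0.128, edgeR). HSPA6, an HSP70 gene that is nearly silent without stress, had 205, 133 and 119 CPM in SpACE cells, against 170, 150 and 166 CPM in miniABEmax-V82G cells, with a 95% interval of the log2 fold change from -0.31 to 0.13. DNAJB1, an HSP40 partner of HSP70, had 832 ± 69.7 CPM in SpACE cells and 734 ± 66.2 CPM in miniABEmax-V82G cells, at 0.18 ± 0.0765 (adjusted p = 0.252, edgeR). HSPH1, an HSP110 chaperone, had 1050, 988 and 1000 CPM in SpACE cells, against 847, 852 and 884 CPM in miniABEmax-V82G cells, with no overlap, at 0.23 ± 0.0756 (adjusted p = 0.117, edgeR). With Target-AID the levels were 2950 ± 272 CPM for HSPA1B, 1500 ± 83 CPM for HSPA6 and 2560 ± 123 CPM for DNAJB1.

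The single heat shock gene called lower, HSPA1A, is uncertain. It had 46 counts in all SpACE libraries and 127 in all miniABEmax-V82G libraries, or 2.19, 1.95 and 1.02 CPM against 5.37, 4.63 and 3.91 CPM, a log2 fold change of -1.43 ± 0.267 (adjusted p = 0.0079, edgeR). The call was lost without SpACE replicate 3. It was also not made with DESeq2, where a gene given no adjusted p counts as not called. HSPA1A and HSPA1B transcripts are 94.5% identical over 2403 aligned bases, so their reads can be shared, and HSPA1A held 0.0838 to 0.177% of the counts of the pair in SpACE libraries and 0.287 to 0.375% in miniABEmax-V82G libraries. The CPM of the pair summed to 1210 ± 26.7 in SpACE cells and 1368 ± 61.8 in miniABEmax-V82G cells.

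HMOX1 was the one riser of 25 tested genes of the oxidative stress list, many of them targets of the transcription factor NRF2. FTL, the light chain of the iron store ferritin, was the one that fell, with 207, 204 and 210 CPM in SpACE cells, against 263, 236 and 246 CPM in miniABEmax-V82G cells, at -0.26 ± 0.0639 (adjusted p = 0.0354, edgeR). Each of these calls was 4% of the list, beside 0.438% higher and 0.301% lower of all genes tested, and the list median was -0.0112. In the list of the unfolded protein response of the endoplasmic reticulum, 1 of 32 tested genes was called: PDIA4, a disulfide isomerase, fell by 0.25 ± 0.0618 on the log2 scale. FTL and PDIA4 each lost the call in all 6 fits without 1 library and when library trends with gene span and GC were removed.

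**Figure D3:**
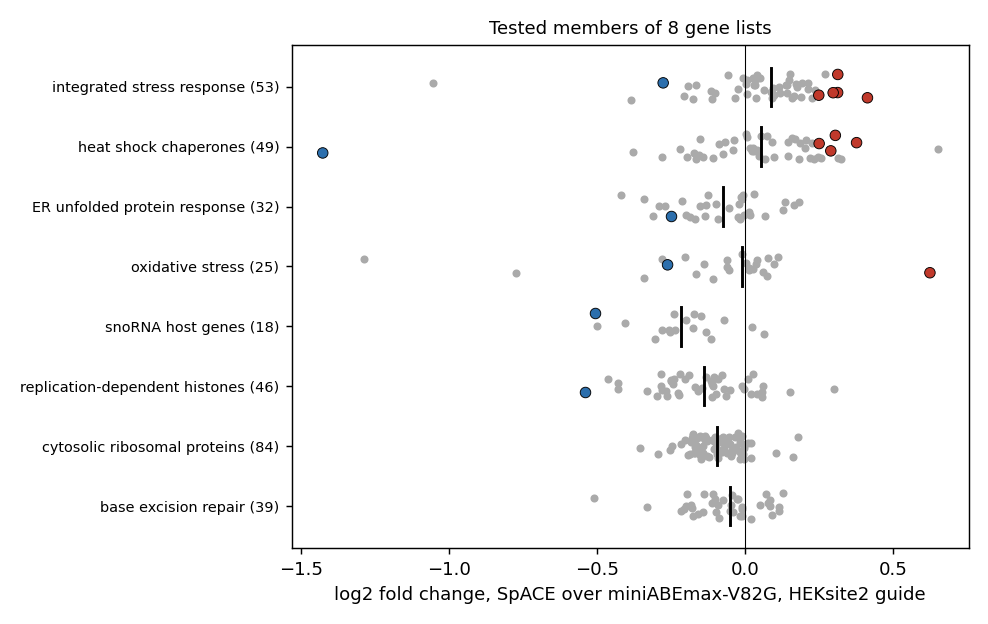
Log2 fold change, SpACE over miniABEmax-V82G with the HEKsite2 guide, of the tested members of 8 gene lists, with the number tested in brackets. Each point is a gene, red where called higher and blue where called lower in SpACE, and the black bar is the list's median, which was 0.0868 for the integrated stress response and -0.218 for snoRNA host genes.

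Beyond these lists, the larger rises fell among genes of several kinds. FAM129A, or Niban, a gene induced by stress, had 23.9, 21.3 and 22.3 CPM in SpACE cells, against 13.8, 17.2 and 14.1 CPM in miniABEmax-V82G cells. It stood at 9.07 ± 0.593 CPM in nCas9 cells and 14.5 ± 0.41 CPM in cells with GFP alone. The log2 fold change between the editors was 0.58 ± 0.128 (adjusted p = 0.0219, edgeR), and the call was lost without miniABEmax-V82G replicate 1 or 3 or SpACE replicate 1 or 3. Several were transcription factors: ZFHX4 rose by 0.45 ± 0.112, FOXP2 by 0.40 ± 0.0993, ZNF703 by 0.40 ± 0.0984 and GMEB1, which binds glucocorticoid modulatory elements, by 0.41 ± 0.0789. Of 432 tested genes with ZNF names, ZNF703 and ZNF280B (0.34 ± 0.0716) were called, in a list with a median of 0.0146. That is 0.463% of the list called higher, near the 0.438% of all genes tested, so it says little about these genes as a family. PHF21B, a PHD finger protein, rose by 0.43 ± 0.0982, DNAJC16, a J-domain protein, by 0.42 ± 0.0947, the membrane trafficking gene SCAMP4 by 0.41 ± 0.0998, and EFNA5, the Eph receptor ligand ephrin-A5, by 0.40 ± 0.0929. ZNF280B lost its call in 3 of the 12 settings tried, and FAM129A, ZFHX4, FOXP2, ZNF703, PHF21B, DNAJC16, SCAMP4 and EFNA5 in 4 to 6. GMEB1 lost its call without miniABEmax-V82G replicate 2 alone, with 25.2, 25.7 and 26.8 CPM in SpACE cells, against 18.9, 18.8 and 20.7 CPM in miniABEmax-V82G cells. SPATS2L, a protein of stress granules and nucleoli, rose by 0.35 ± 0.0724 and was not called without SpACE replicate 1 or miniABEmax-V82G replicate 2. BRCA2, which acts in homologous recombination and is the one call of 48 genes of nick and break repair, rose by 0.28 ± 0.0688 and lost its call in each fit without 1 library.

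The larger falls included a receptor, carriers of small molecules and enzymes. GPRC5C, an orphan G protein-coupled receptor, had 2.42, 3.26 and 2.37 CPM in SpACE cells, against 5.59, 5.16 and 4.14 CPM in miniABEmax-V82G cells, at -0.88 ± 0.203. Solute carriers gave 3 calls among 254 tested genes, all lower, or 1.18% beside 0.301% of all genes tested. The median of the solute carriers was -0.00876, and 115 of the 254 were above 0. The called ones were SLC2A3, the glucose transporter GLUT3, at -0.72 ± 0.182, the mitochondrial uncoupling protein gene SLC25A27 at -0.68 ± 0.167, and SLC25A42, a mitochondrial coenzyme A carrier, at -0.47 ± 0.108. SLC2A3 was also the one call of 34 genes of hypoxia and glycolysis. It stood at 3.99 ± 0.567 CPM in SpACE cells and 6.6 ± 0.619 CPM in miniABEmax-V82G cells, both under the 10.4 ± 0.814 CPM of nCas9 cells. Cells with GFP alone had 4.42 ± 0.762 CPM of SLC2A3. The kinesin gene KIFC2 fell by 0.71 ± 0.169 on the log2 scale, INHBE, an activin subunit, by 0.70 ± 0.165, and TRIM45, a ubiquitin ligase, by 0.66 ± 0.155. RSRP1, named for its arginine and serine rich protein, fell by 0.61 ± 0.154. The transcribed pseudogenes PLEKHM1P (-0.85 ± 0.214) and ZNF767P (-0.65 ± 0.143) can share reads with their parent genes. GPRC5C, the 3 carriers, KIFC2, INHBE, TRIM45, RSRP1 and the pseudogenes each lost the call in 4 to 8 of the 12 settings tried. Except for SLC25A42 and ZNF767P, these settings included DESeq2, where a gene given no adjusted p counts as not called.

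ANKRD1, a target of the Hippo pathway's coactivator YAP, was the one call of 18 YAP targets. It had 10.4, 7.6 and 6.78 CPM in SpACE cells, against 14.6, 11.5 and 12.2 CPM in miniABEmax-V82G cells and 1.3 ± 0.647 CPM in nCas9 cells. Both editors thus had far more ANKRD1 than the nickase, but cells with GFP alone had 14.9 ± 2.02 CPM, more than either editor. Between the editors ANKRD1 was lower in SpACE by -0.63 ± 0.152 (adjusted p = 0.0337, edgeR). The call of ANKRD1 was lost without each of the 3 miniABEmax-V82G libraries and without SpACE replicate 2 or 3. It was also not made with DESeq2, where a gene given no adjusted p counts as not called. HIST1H1D, a replication-dependent linker histone, had 88.2, 144 and 145 CPM in SpACE cells, against 166, 198 and 185 CPM in miniABEmax-V82G cells, at -0.54 ± 0.131. SpACE replicate 1 was far below the others, and without it, without miniABEmax-V82G replicate 2 or 3, or with library trends with gene span and GC removed, the call was lost (values from -0.66 to -0.345 over the settings tried). It was the one call of 46 tested histone genes, of which 9 were above 0, with a median of -0.14, whereas with the RNF2 guide 42 were above 0, with a median of 0.131. SNHG7, a host gene of small nucleolar RNAs, had 39.3, 34.4 and 32.1 CPM in SpACE cells, against 53.2, 48.6 and 48.5 CPM in miniABEmax-V82G cells, at -0.51 ± 0.0972 (adjusted p = 0.0079, edgeR), and lost its call without SpACE replicate 3. It was the one call of 18 snoRNA host genes, of which 2 were above 0 and whose median was -0.218.

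At 2-fold or more, 1 gene was higher and 3 were lower, and all of them rest on few counts or on 1 library. ANKRD34A, named here after its values were seen, had 32.1, 1.63 and 2.37 CPM in SpACE cells, against 3.73, 2 and 2.19 CPM in miniABEmax-V82G cells. Its log2 fold change of 2.17 ± 0.525 (adjusted p = 0.0337, edgeR) rests on SpACE replicate 1: without that library it was -0.40 (adjusted p = 0.601), and the other SpACE libraries lie near those of miniABEmax-V82G and of nCas9, at 2.97 ± 0.176 CPM. It was the only called gene whose groups overlapped: 107 of the 108 did not, against 21% of all genes tested. Beside HSPA1A, the falls were those of MAGIX, with 20 counts in SpACE and 55 in miniABEmax-V82G libraries, and LOC646471, with 24 in SpACE and 67 in miniABEmax-V82G libraries, also named after their values were seen. LOC646471 lost its call in each of the 6 fits without 1 library, and MAGIX without miniABEmax-V82G replicate 1 or 2 or SpACE replicate 1 or 3.

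Of 31 gene lists, 20 held no called gene. As only 0.739% of all genes tested were called, no call is near that share for most lists and says little about them. Among the 20 were base excision repair (39 tested, median -0.0505) and mismatch repair (8 tested, median 0.016), which act on deaminated DNA. The cell's own deaminases (15 tested), the interferon and DNA sensing genes (30 tested), p53 targets (31 tested) and the immediate early genes (44 tested) were others. Cytosolic ribosomal protein genes had no call among 84 tested, of which 6 were above 0, with a median of -0.096. With the RNF2 guide 82 of the 84 were above 0, with a median of 0.161. No ribosomal protein or histone gene was called in the test of the difference between the guides, which called 0.0205% of all genes. In the shortest of 5 equal groups of all tested genes by span, the median was -0.0719 with HEKsite2 and 0.0232 with RNF2. Whether span has a part in the shifts of ribosomal protein and histone genes was not tested. A further 6 lists held 1 called gene each, and a single call says little about a list either. That call was 2.08% of nick and break repair, which was higher. The calls that were lower were 3.12% of the unfolded protein response, 5.56% of YAP targets, 2.94% of hypoxia and glycolysis, 2.17% of histone genes and 5.56% of snoRNA host genes. Over all genes tested, 0.438% were higher and 0.301% lower. In all, 23 of the 108 called genes were in a list and 85 in none.

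The called genes also differed in span and GC content, and the libraries of the editors stood apart in the level of long against short genes. Genes higher in SpACE had a median span from start to end of 66236.5 bases and a median transcript GC content of 44.1%, genes lower in SpACE had 17954 bases and 53%, and all tested genes 32412.5 bases and 48.2%. With the genes split by span into 5 equal groups, the median log2 fold change was -0.0719 in the shortest and 0.0682 in the longest genes, and 3 of the shortest and 20 of the longest genes were called higher, against 16 and 2 called lower. Relative to the mean of the libraries compared, the median level of the longest group minus that of the shortest was 0.00443, 0.0771 and 0.121 (log2) in SpACE libraries, against -0.121, -0.0492 and -0.0324 in miniABEmax-V82G libraries. By GC content the editors overlapped. The 5th of genes lowest in GC minus the highest gave -0.06, 0.09 and 0.115 in SpACE and -0.085, -0.0247 and -0.0352 in miniABEmax-V82G libraries. With the trend of each library removed, 155 genes were called, 88 of them among the 108. HMOX1, AARS, SPECC1L, SUGT1, ZBTB7B and PHF1 kept their calls in that fit, and beyond it the part of the trend in the results was not tested.

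**Figure D4:**
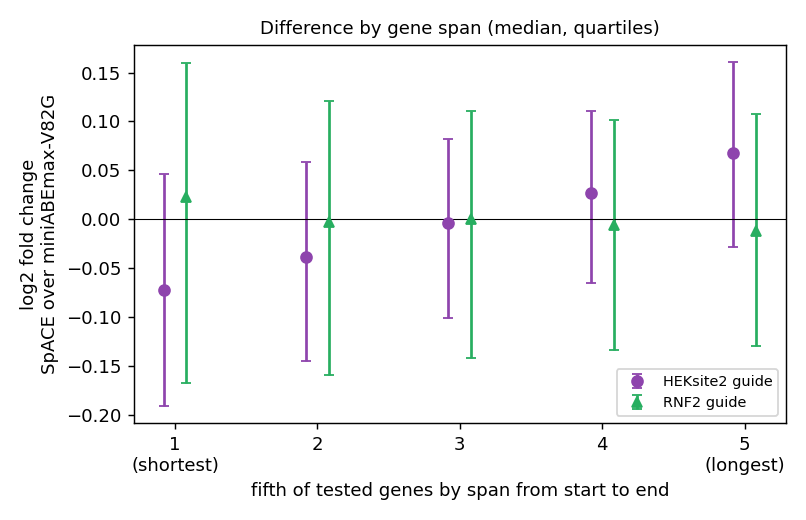
Median log2 fold change, SpACE over miniABEmax-V82G, in 5 equal groups of the tested genes by span from start to end, for the HEKsite2 guide (purple circles) and the RNF2 guide (green triangles); bars run between the quartiles. The HEKsite2 medians run from -0.0719 in the shortest to 0.0682 in the longest genes, and the RNF2 medians from 0.0232 to -0.0116.

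With the RNF2 guide the same editors were compared in other libraries. There 855 genes were called (5.85%), 450 higher (3.08%) and 405 lower (2.77%) in SpACE. Of the 108 genes called with HEKsite2, 92 (85.2%) had the same sign with RNF2, against 52.4% of all genes tested, and 26 were called with the same sign, which is 24.1% of the 108 and 3.04% of the 855. None was called with the opposite sign. Over all 14613 genes the log2 fold changes with the HEKsite2 and RNF2 guides had a Pearson r of 0.131 and a Spearman rho of 0.0928, a description across genes, which are not independent replicates.

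The 26 included most of the genes described first. HMOX1 rose by 0.81 ± 0.0899 with RNF2, at 147 ± 12.9 CPM in SpACE cells and 83.5 ± 3.16 CPM in miniABEmax-V82G cells, AARS by 0.53 ± 0.0582, FAM129A by 0.61 ± 0.128 and SUGT1 by 0.29 ± 0.0656. ASNS rose by 0.49 ± 0.0617 and ATF3 by 0.38 ± 0.0726 with RNF2, and PTGES3, HSPD1 and SPATS2L were also higher there. ZBTB7B fell by 0.39 ± 0.0988, PHF1 by 0.40 ± 0.105 and KIFC2 by 0.55 ± 0.169 on the log2 scale, and KIAA0907, an RNA-binding protein, fell by 0.43 ± 0.0916 with HEKsite2 and by 0.41 ± 0.0932 with RNF2. SPECC1L missed the threshold with RNF2, at 0.24 ± 0.0764 (adjusted p = 0.051, edgeR). Of the 53 genes of the integrated stress response, 8 rose and 0 fell with RNF2, and ATF4 had 585 ± 5.3 CPM in SpACE cells and 561 ± 20.5 CPM in miniABEmax-V82G cells, a log2 fold change of 0.06 ± 0.0562. Of the 49 genes of the heat shock list, 11 rose and 1 fell, the fall being HSPA1A again with 41 counts in SpACE and 82 in miniABEmax-V82G libraries. Over all genes tested with RNF2, 3.08% rose and 2.77% fell.

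**Figure D5:**
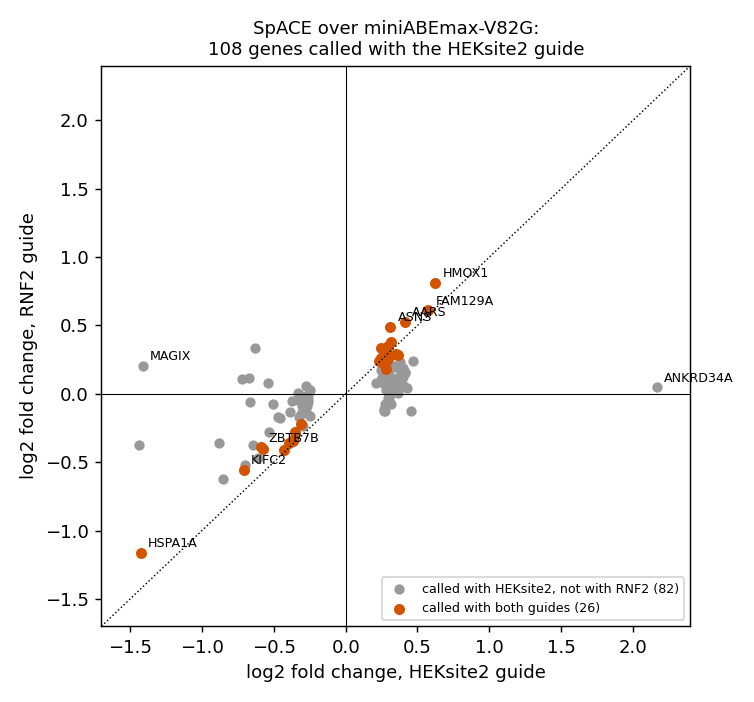
The 108 genes called with the HEKsite2 guide, with the log2 fold change of SpACE over miniABEmax-V82G for the HEKsite2 guide on the horizontal and for the RNF2 guide on the vertical axis; the dotted line marks equal values. Orange points are the 26 genes called with both guides, all of the same sign, and grey points the other 82, among them ANKRD34A at 2.17 with HEKsite2 and 0.05 with RNF2.

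A test of the difference between the guides called 3 of 14613 genes (0.0205%), 0 higher and 3 lower with HEKsite2 than with RNF2. The kinetochore gene DSN1 had 80.3 ± 3.7 CPM in SpACE cells and 75.5 ± 2.13 CPM in miniABEmax-V82G cells with HEKsite2, and 75.6 ± 5.55 and 49.6 ± 1.06 CPM in SpACE and miniABEmax-V82G cells with RNF2. The lowest of these groups was thus miniABEmax-V82G with RNF2, and the same held for IQCB1 and DUT. In nCas9 cells with HEKsite2, DSN1 had 88.3 ± 4.03, DUT 96.5 ± 5.47 and IQCB1 65.1 ± 3.98 CPM. IQCB1 was thus also higher in miniABEmax-V82G with HEKsite2 than in nCas9, by 0.46 ± 0.0693 (adjusted p = 1.57e-05, edgeR). At an unadjusted p under 0.05 the test gave 2395 genes, and DESeq2 called 136. ATF4 (-0.34 ± 0.0795, adjusted p = 0.0653) and ANKRD1 (-0.97 ± 0.238, adjusted p = 0.0726) did not pass it. RNF2 itself, a ubiquitin ligase of a Polycomb complex, had 71.9 ± 3.12 CPM in SpACE cells and 67.3 ± 1.19 CPM in miniABEmax-V82G cells with HEKsite2, at 0.10 ± 0.0746 (adjusted p = 0.59, edgeR). With the RNF2 guide it had 62.4 ± 1.98 CPM in SpACE cells and 47.9 ± 2.73 CPM in miniABEmax-V82G cells, a called rise of 0.38 ± 0.0795 (adjusted p = 0.004, edgeR), and the difference between the guides was -0.29 ± 0.109 (adjusted p = 0.188, edgeR).

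Total counts ran from 8690271 to 9248089 in SpACE libraries and from 8747696 to 9488923 in miniABEmax-V82G libraries with the HEKsite2 guide. No replicate pair was alike within sampling noise. Markers of HEK293 cells, 11 genes with 0 of them at 0 in all 6 libraries, summed to 706 to 737 CPM in SpACE and 683 to 716 CPM in miniABEmax-V82G libraries. Liver markers summed to 1.41 to 3.11 CPM in SpACE and 0.877 to 1.73 CPM in miniABEmax-V82G libraries, with SERPINA1 at 0, and blood markers to 1.81 to 3.68 CPM in SpACE and 3.16 to 3.8 CPM in miniABEmax-V82G libraries. Mesenchymal markers summed to 14.7 to 17.7 CPM in SpACE and 18.1 to 19 CPM in miniABEmax-V82G libraries. Fewer cells that express a gene and less RNA of it per cell cannot be told apart in such bulk samples.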

How the data were processed

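RNA was measured in sorted HEK293T cells, with a stranded total RNA kit per the labels' protocols. The authors deposited 1 table, which holds raw counts of reads for each gene symbol and library, and per the submitters' processing notes STAR, GATK 3.8.1, Picard 2.7 and the GRCh38 build were used, with no roles given. How reads were assigned to genes, and whether strand was used, is not given in the sources used here, so overlapping and antisense genes cannot be told apart. Columns were matched to samples by construct, guide and replicate, with 0 left over.

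Genes were kept by filterByExpr (14613 of 26475), scaled by TMM, and tested by edgeR 4.0.16 in R 4.3.3 (limma 3.58.1; quasi-likelihood F-test), two-sided, on all 33 libraries in 11 groups (22 residual degrees of freedom), with Benjamini-Hochberg adjustment over the genes tested and a threshold of 0.05. The SE is from the same fit, and the 95% intervals are not adjusted. CPM uses TMM-scaled library sizes. Positions and gene types are from GENCODE annotation on GRCh38, with symbols matched for all but 1843 genes. The 31 gene lists, and 4 further lists of cell type markers, are described by counts and medians.

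Named genes are the 12 largest rises and falls among called genes with mean log2 CPM of at least 1 and no overlap between groups, the 6 smallest p, called list members (up to 4 where a list has many), 5 per direction called alike with both guides, and interaction calls. Genes, lists and rules were chosen with earlier results of these data known. Genes outside this rule (ATF3, TARS, HSPA1B, HSPA6, DNAJB1, HSPH1, DDIT3, TRIB3 and RNF2 among them) were chosen after their values were seen. Alternatives were RLE scaling, no filter, a replicate block, DESeq2 1.42.0, only the groups compared, each library left out and, chosen after seeing the data, removal of each library's trend with gene span and GC. The procedure was tested on simulated data. Tables and figures came from Python 3.11.15, pandas 2.3.3, Biopython 1.88 and matplotlib 3.10.9.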

Additional observations from a re-analysis of the deposited data

Results flagged for a closer look

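Effects of SpACE against miniABEmax-V82G differed between the guides, by the interaction test of edgeR, for 3 genes. DSN1, a kinetochore protein, had an interaction log2 fold change (HEKsite2 minus RNF2) of -0.52 ± 0.0835 (adjusted p = 0.00329), with 0.09 ± 0.0571 for HEKsite2 and 0.61 ± 0.0609 for RNF2. IQCB1, a protein of the primary cilium, had -0.59 ± 0.098 (adjusted p = 0.00368), with -0.17 ± 0.0673 for HEKsite2 and 0.42 ± 0.0712 for RNF2. DUT, which removes dUTP and so keeps uracil out of DNA, had -0.57 ± 0.108 (adjusted p = 0.0213), with -0.11 ± 0.0748 for HEKsite2 and 0.46 ± 0.0774 for RNF2. DUT stood at 82 ± 2.56 CPM in SpACE and 88.4 ± 1.52 CPM in miniABEmax-V82G cells with HEKsite2, and at 89.4 ± 2.87 CPM in SpACE and 64.7 ± 3.82 CPM in miniABEmax-V82G cells with RNF2. IQCB1 had 79.5 ± 5.28 CPM in SpACE and 89.3 ± 1.27 CPM in miniABEmax-V82G cells with HEKsite2, and 76.9 ± 5.41 CPM in SpACE and 57.4 ± 2.4 CPM in miniABEmax-V82G cells with RNF2. DSN1 and IQCB1 were called in all 12 fits without 1 library, and DUT in 6 of them, being lost without SpACE replicate 1 or miniABEmax-V82G replicate 2 of HEKsite2, and without SpACE replicate 2 or 3 or miniABEmax-V82G replicate 1 or 2 of RNF2.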

How the results depend on the processing

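The count of 108 genes for SpACE against miniABEmax-V82G with HEKsite2 was 247 with no filter on low counts, 194 with only the groups compared in the fit, and 13 to 75 with 1 library left out. For the RNF2 guide, 855 became 1874 with only the groups compared and 206 to 525 with 1 library left out. The interaction, with 3 calls, gave 468 with no filter, 136 with DESeq2, 711 with only the groups compared, 7 with library trends with gene span and GC removed, and 2 to 28 with 1 library left out. Against nCas9, miniABEmax-V82G gave 858 to 1197 calls with 1 library left out, in place of 1511, the lowest without miniABEmax-V82G replicate 3, and SpACE gave 2143 to 3272 over all alternatives, in place of 3063. Deviations from the group means of same-numbered SpACE and miniABEmax-V82G libraries with HEKsite2 had correlations of 0.0874, 0.0234 and -0.0545. Differently numbered ones gave -0.136 to 0.123. The replicate block nevertheless raised the calls, to 202 for HEKsite2, 980 for RNF2 and 65 for the interaction. Whether replicate numbers pair libraries across all groups was not tested. RLE scaling gave 108 and 843 calls for HEKsite2 and RNF2. The 45 genes named by the rule kept their sign in every alternative, with 369 values on the same side of the threshold and 171 no longer past it. A gene given no adjusted p by DESeq2 counts as no longer past it. The causes of these shifts were not tested. With 3 libraries a group, leaving 1 out leaves a group of 2, and low genes such as HSPA1A rest on few counts.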
